A study of Apis mellifera with 4 samples.

Results

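AmOr149, AmOr150 and AmOr151 are 3 consecutively numbered odorant receptors of the honey bee, taken from the 313 genes and 168 odorant receptors of a 2-colour oligonucleotide array. They were selected on the log2 ratio of worker over drone signal, which was above 0 on every array, so their ratios are given as a description, with no test. Whole antennae of worker bees (females) and of mature drones (males) were collected at the hive entrance, in pools of 50 antennal sets, and each of 4 arrays compared 1 worker pool with 1 drone pool from independent collections. No strain, age or treatment is given in the labels. The dye fields of the labels put worker in Cy5 and drone in Cy3 on arrays 1 and 3, and worker in Cy3 and drone in Cy5 on arrays 2 and 4. Each gene was printed as 1 kind of oligonucleotide in 2 spots. Pools of whole antennae cannot tell fewer receptor neurons from less RNA per neuron.

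Insect odorant receptors are membrane proteins of olfactory sensory neurons, and each works as an ion channel together with a shared co-receptor, named AmOr002 on this array. Odorants reach them through the fluid of the sensillum, where odorant binding proteins carry them. Worker bees forage and meet floral odours, whereas drones carry antennae rich in placoid sensilla and search for queens. AmOr151 has been described as a receptor that responds to floral compounds such as linalool. No odorant is named here for AmOr149 or AmOr150. In the RefSeq gene table of assembly Amel_HAv3.1, 35 of the 168 receptors could be matched by name, and of the 3 receptors described here AmOr151 was the 1 matched.

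Tissue markers were read first. AmOr002 and AmSNMP, a membrane protein of olfactory neurons, were above the negative controls on 4 of 4 arrays in worker and on 4 of 4 in drone, as were the antennal binding proteins AmOBP01 and AmOBP02. Opsins, taken here as markers of eye tissue, were above them on at most 2 arrays in worker (AmLop1) and at most 1 array in drone (AmBLop). AmOr011, the receptor for the main queen pheromone component, had a log2 ratio of -3.45 ± 0.17 (SE, n = 4), higher in drone with limma's adjusted p = 4.07e-05. After turning each array by its dye fields, the arrays correlated across genes at r from 0.39 to 0.78. Turned instead by the free text of the labelling protocols, which names other dyes for arrays 2, 3 and 4, they correlated at r from -0.78 to 0.73. "Above the negative controls" means that the signal above local background, averaged over the spots of a gene, passed a threshold set per array and dye at 2 SD over the average negative control spot, leaving out the bright control oligo 4, a choice made after seeing the data. With all 8 control oligos kept, none of the 3 receptors was above the controls on any array in either sex. AmOr002 was then above them on 2 arrays in worker and 4 in drone, and AmSNMP on 3 and 2. AmOBP02 had 4 and 1 arrays, and AmOBP01 kept 4 and 4. On at least 3 arrays, 26 of 313 genes passed in worker and 28 in drone, with 0 and 3 of the 168 receptors. Without oligo 4 these counts were 97 and 90 genes, with 25 and 21 receptors.

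AmOr151 had the largest mean ratio of the 3 and was the 1 above the negative controls in worker on each array. Its signal above local background was 2223.5, 813.5, 1450.5 and 3241.5 intensity units in worker on arrays 1 to 4, against 839, 94, 605 and 573.5 in drone. Within each array the worker signal was the higher, and the lowest worker signal, on array 2, lay below the highest drone signal, on array 1, so that the groups overlap unless compared array by array. In worker it exceeded the control threshold on all 4 arrays, from 1.05 times the threshold on array 3 to 10.1 times on array 2. In drone it was above them on arrays 1 and 2, at 1.24 and 1.60 times the threshold, and below on arrays 3 and 4, at 0.62 and 0.95 times. After loess normalization the log2 ratio of worker over drone was 1.56, 2.07, 0.91 and 2.76 on arrays 1 to 4, with a mean of 1.83 ± 0.78 (SD, n = 4), which is a 3.55-fold higher signal in worker, measured against a drone signal that passed the control threshold on 2 of 4 arrays. With the drone level on each array set no lower than the lowest drone level above the controls there, the fold was 3.12. That mean ranked 10 among the 313 genes and 2 among the 168 receptors. Array 4 gave the highest value and array 3 the lowest.

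AmOr149 had a signal above local background of 249, 125.5, 1003 and 768.5 in worker on arrays 1 to 4, against 227, 12, 412 and 91 in drone. Before normalization the worker signal was the higher on each array, by a small margin on array 1 and by a wide one on arrays 2 and 4. The median gene had 222.5, 110.5, 605 and 640 in worker on arrays 1 to 4, against 464, 46.5, 576 and 172.5 in drone. The margins of AmOr149 thus follow those of the median gene. AmOr149 was above the negative controls in worker on arrays 2 and 4, the arrays with worker in Cy3, and in drone on no array. The median gene had this same pattern, so it is not particular to AmOr149. The thresholds on arrays 1 to 4 were 607, 80.5, 1376 and 563 in worker and 677, 58.7, 974 and 601 in drone. The normalized log2 ratio of AmOr149 was 1.09, 0.62, 0.96 and 0.83 on arrays 1 to 4, with a mean of 0.87 ± 0.20 (SD, n = 4), the smallest mean and the smallest spread of the 3. Because the drone signal was never above the controls, only a bound on the fold could be drawn, and no fold is given since that bound was under 1.

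AmOr150 had signals of 169.5, 132, 656.5 and 623 in worker on arrays 1 to 4, against 222, 9.5, 184 and 40.5 in drone. On array 1 the measured worker signal was thus the lower of the pair. In worker it was above the negative controls on arrays 2 and 4, as for AmOr149 and the median gene, and in drone on no array. The opsin AmLop1, a marker of eye tissue, had this same pattern, at 1.21 and 1.55 times the threshold in worker on arrays 2 and 4. On those arrays AmOr149 stood at 1.56 and 1.36 times the threshold and AmOr150 at 1.64 and 1.11 times. For AmOr150 the normalized log2 ratio was 0.75, 0.71, 1.72 and 0.96 on arrays 1 to 4, with a mean of 1.04 ± 0.47 (SD, n = 4). Array 3 stood above the other 3 arrays, which lay close together. As for AmOr149, the bound on the fold was under 1 and no fold is given.

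**Figure D1:**
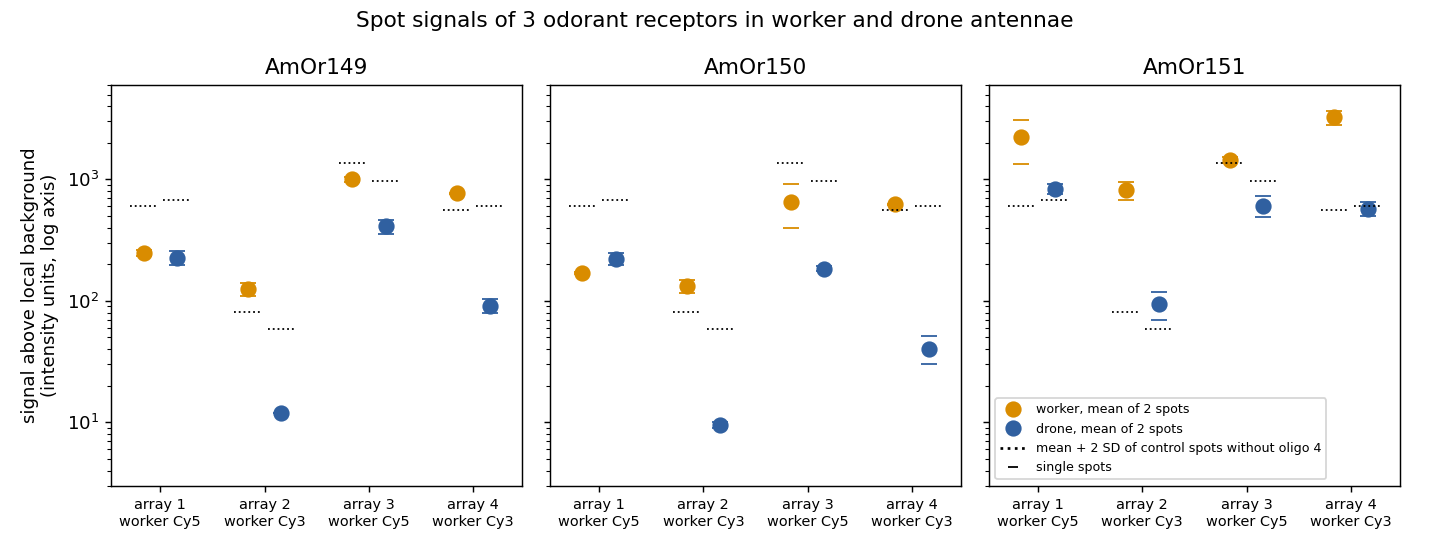
Signal above local background (intensity units, log axis) of AmOr149, AmOr150 and AmOr151 on arrays 1 to 4, worker left of drone. Points are means of 2 spots, short marks are the single spots, and dotted lines are the threshold from the negative controls without oligo 4. AmOr151 in worker lies above its line on 4 of 4 arrays, whereas AmOr149 and AmOr150 in drone lie below theirs on each array.

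No spot of the 3 receptors carried a quality flag, and at most 1% of the pixels of a spot was saturated. The duplicate spots of a gene lay on average 0.25 apart in log2 ratio for AmOr149, 0.36 for AmOr150 and 0.42 for AmOr151. The largest gaps were 1.92 and 1.20 for the 2 spots of AmOr151 on array 1, 1.25 and 0.58 for AmOr151 on array 3, and 2.05 and 1.39 for AmOr150 on array 3. Each of the 24 spot ratios was above 0, which the choice of receptors with means of the 2 spots above 0 on every array largely set in advance. The spread over arrays was 0.20 for AmOr149, below the median SD of 0.40 among receptors, and 0.47 and 0.78 for AmOr150 and AmOr151, above it.

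All 3 receptors were among the 23 genes that limma called higher in worker (adjusted p under 0.05 over 313 genes), which are 7.35% of the genes tested. The 14 genes called higher in drone were 4.47%. Since this contrast chose the receptors, nothing is read from that count. A ratio above 0 on 4 of 4 arrays, the property used in the choice, was found in 55 genes, 17.6% of all, and in 29 of the 168 receptors. A ratio below 0 on 4 of 4 arrays was found in 47 genes, 15.0% of all. Without array 2 the genes called higher in worker numbered 13 and those in drone 6. The split of 23 worker and 14 drone calls became 13 and 4 without normalization, 5 and 2 with centring on housekeeping genes and 4 and 4 with centring on the array median.

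The negative control spots, which match no bee gene, did not have ratios near 0 on every array. Their median log2 ratio of worker over drone was 0.58, -0.24, 0.40 and -1.53 on arrays 1 to 4, thus positive where worker was in Cy5 and negative where it was in Cy3. On array 1 the 16 control spots reached up to 1.00, so that AmOr150 at 0.75 lay within their range and AmOr149 at 1.09 just above it. On array 3 they reached up to 1.99, and all 3 receptors lay within their range. On arrays 2 and 4 the controls reached up to 0.41 and 0.51, and all 3 receptors lay above them. Each mean over 4 arrays holds both dye orientations in equal number. The mean log2 ratio with worker in Cy5 and with worker in Cy3 was 1.02 and 0.72 for AmOr149, 1.24 and 0.84 for AmOr150, and 1.24 and 2.42 for AmOr151. All 6 means were above 0, which the choice of receptors with ratios above 0 on every array fixed in advance. A setting added after seeing the data centred each array on the median ratio of its control spots. The means over arrays were then 1.07 ± 0.87 for AmOr149, 1.23 ± 0.97 for AmOr150 and 2.02 ± 1.69 for AmOr151 (SD, n = 4). Each was above 0 on 4 of 4 arrays and highest on array 4, at 2.36, 2.49 and 4.29. The lowest value was 0.17, for AmOr150 on array 1. Before that centring, AmOr151 differed most between the orientations, and it was higher with worker in Cy3, the opposite order to AmOr149 and AmOr150.

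**Figure D2:**
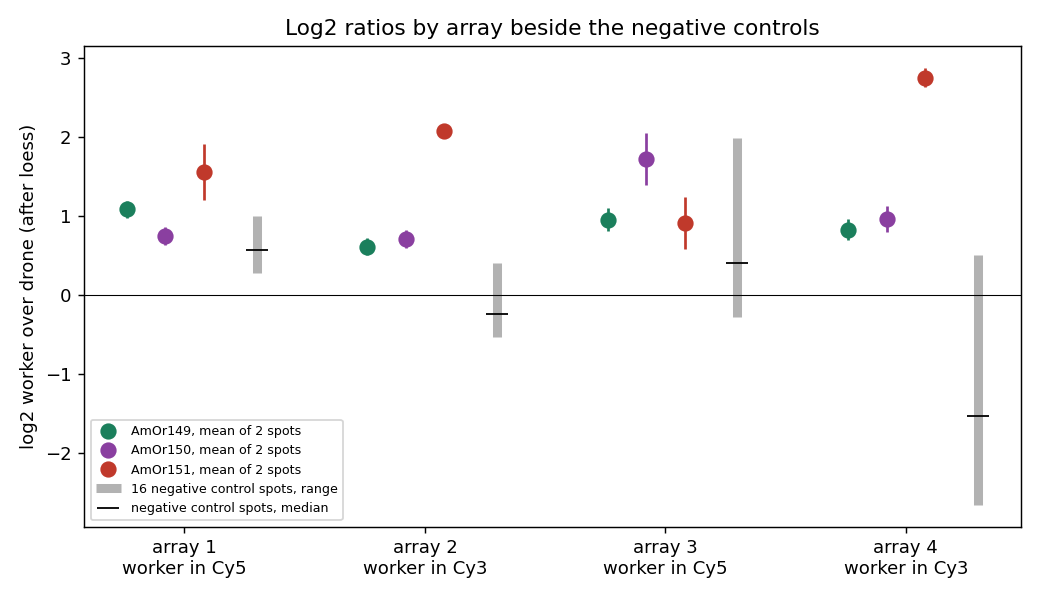
Log2 ratio of worker over drone after loess (vertical axis) for each array, with the dye of the worker sample. Points are means of 2 spots, coloured lines join the 2 spots, and grey bars with a black mark give the range and median of 16 negative control spots. The 3 receptors lie above the grey bars on arrays 2 and 4, and within the bar on array 3.

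The 3 receptors were set against each other in the same ratios that selected them, as a description. AmOr151 exceeded AmOr150 by 0.79 ± 1.14 and AmOr149 by 0.95 ± 0.90 on the log2 scale (SD, n = 4), with a higher value on 3 of 4 arrays in both cases. On array 3 AmOr151 was below AmOr150 by a difference of -0.81 and close to AmOr149, with a difference of -0.044. AmOr150 exceeded AmOr149 by 0.16 ± 0.46, on 3 of 4 arrays. With 4 arrays an exact sign-flip test (two-sided) cannot go below p = 0.125, so it could not have passed 0.05 and is not used. For AmOr149 and AmOr150 the drone signal passed the control threshold on no array, and the worker signal did not pass it on arrays 1 and 3. Their differences thus rest largely on signals below the threshold. Without array 3 the difference between AmOr150 and AmOr149 changed sign, to -0.039.

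Arrays 3 and 4 carry the same number in their labels. On those 2 arrays alone the mean log2 ratio was 0.89 for AmOr149, 1.34 for AmOr150 and 1.84 for AmOr151, against 0.85, 0.73 and 1.82 on arrays 1 and 2. The direction within both pairs of arrays was fixed by the choice of the receptors. AmOr150 had the largest gap between the pairs.

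The direction on single arrays depended on the processing in 2 places. On array 1 AmOr150 had a log2 ratio of -0.16 before normalization, when the median gene stood at -0.64 and the median receptor at -0.81, and loess moved it by 0.91 to 0.75. With centring on the housekeeping genes its value on array 1 was -0.02. On array 4, loess moved AmOr149 from 2.34 down to 0.83 and AmOr150 from 2.64 down to 0.96, whereas AmOr151 moved from 2.35 up to 2.76. The second place was AmOr151 on array 3. There the mean of a spot's pixels exceeded the median by a factor of 2.34 in Cy5 (worker) and 4.85 in Cy3 (drone), averaged over the 2 spots, against factors from 1.00 to 1.30 on the other arrays. With pixel means in place of medians the ratio of AmOr151 on array 3 was -0.28, and its mean over arrays was 1.46 ± 1.25 (SD, n = 4). AmOr149 stayed above 0 on every array under each of the 18 other settings that used the dye fields of the labels. Several of those settings reused the same array ratios, so their signs were fixed by the choice of the receptors.

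In the authors' deposited table the log2 ratios of worker over drone on arrays 1 to 4 were 1.33, 1.56, 1.06 and 1.03 for AmOr149. The authors' deposited table gave 0.98, 1.86, 1.94 and 1.40 for AmOr150 and 1.54, 2.22, 0.86 and 2.65 for AmOr151. Values for AmOr151 lay close to those computed here, and AmOr149 and AmOr150 had larger mean ratios in the authors' deposited table, most of all on array 2. With the dyes of the protocol text, by contrast, arrays 2, 3 and 4 turned round and the means were -0.33, -0.66 and -1.05 for AmOr149, AmOr150 and AmOr151.

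**Figure D3:**
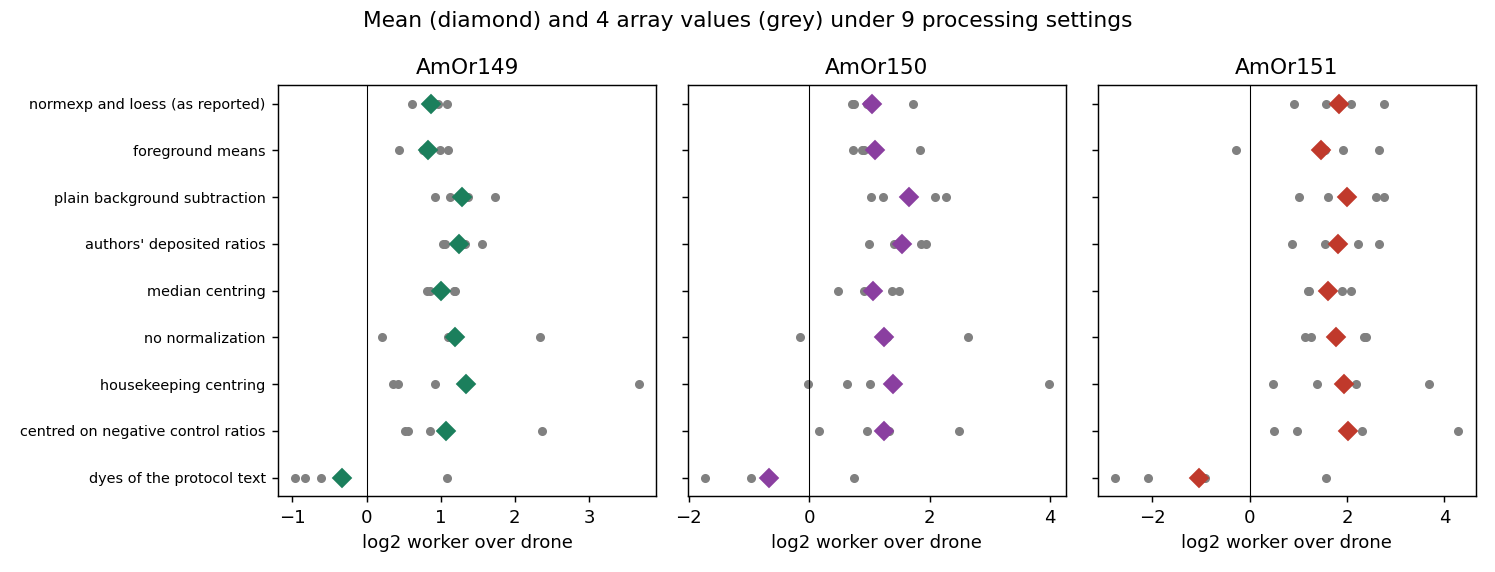
Log2 ratio of worker over drone (horizontal axis) of the 3 receptors under 9 processing settings, with the mean as a diamond and the 4 arrays as grey points. With the dye fields of the labels each mean lies above 0, and single arrays fall below 0 for AmOr150 without normalization and with housekeeping centring and for AmOr151 with foreground means. The last line, with the dyes of the protocol text, has each mean below 0.

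The numbers just outside the run were also above 0 on 4 of 4 arrays. AmOr152 had log2 ratios of 1.61, 0.81, 1.10 and 0.08 on arrays 1 to 4, with a mean of 0.90 ± 0.26 (SE, n = 4), larger than that of AmOr149, and was not called (limma adjusted p = 0.0885). AmOr148 had 0.57, 0.10, 0.85 and 0.15, with a mean of 0.42 ± 0.19 (SE, n = 4, limma adjusted p = 0.268). AmOr152, like AmOr149, AmOr150 and the median gene, was above the negative controls in worker on 2 arrays and in drone on none. The run of receptor numbers with ratios above 0 on every array thus reached from AmOr148 to AmOr152. AmOr152 stayed above 0 on 4 arrays under median, housekeeping and control centring and without normalization, while AmOr148 fell below 0 on 1 array under all of these but housekeeping centring. No spot carried the number 153, and AmOr154, with a mean of 0.25 ± 0.17 (SE, n = 4), was also above 0 on 4 arrays and was not called. AmOr154 kept 4 arrays above 0 under median centring, but had 3 without normalization and 2 under housekeeping and control centring.

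Of the 17 other receptors numbered 140 to 160, limma called 0, with 2 at an unadjusted p under 0.05, AmOr152 and AmOr159. Among all 313 genes limma called 37 (11.8%) in either direction, with 68 at an unadjusted p under 0.05. AmOr159 leaned the other way, at -0.77 ± 0.29 (SE, n = 4, limma adjusted p = 0.170). The 17 mean ratios ran from -0.77 to 0.90 with a median of -0.03. Of the 17, 3 were above 0 on each array, close to the share among all genes (55 of 313, 17.6%).

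**Figure D4:**
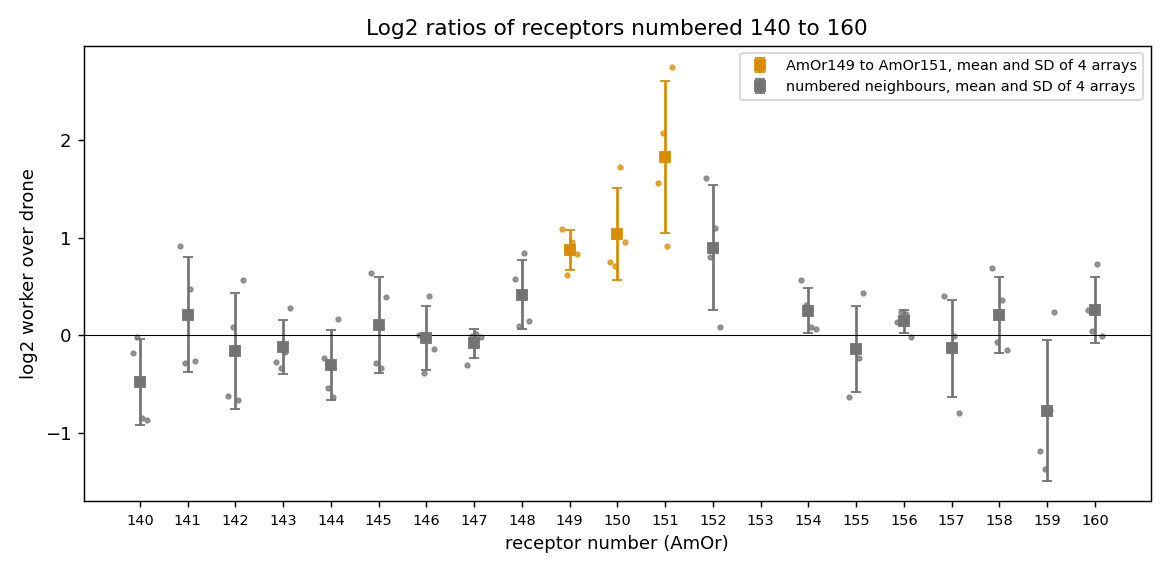
Log2 ratio of worker over drone (vertical axis) by receptor number from 140 to 160. Squares with bars are the mean and SD of 4 arrays, and dots are single arrays. The 3 coloured receptors and AmOr148 and AmOr152 beside them have 4 dots above 0, whereas most others straddle 0.

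The genes whose ratios over the 4 arrays were most like the mean of the 3 receptors were not receptors. Over 8 values per gene, which are the centred log2 levels of 2 sexes on 4 arrays and thus mirror images within an array, the 5 genes with the highest Pearson's r each had r = 0.99. They were the tetraspanin AmTspan12, with a mean log2 ratio of 1.52, the cytochrome P450 AmCyp006BE1 with 4.45, the glutathione S-transferase AmGST7 with 1.39, the cytochrome P450 AmCyp335B1 with 1.13 and the odorant binding protein AmOBP11 with 3.43. All 5 were above 0 on 4 arrays. Because the 3 receptors were selected with ratios above 0 on each array, any gene with a steady ratio above 0 has a high r, whatever the size of its ratio.

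Among the other parts of the olfactory pathway, limma called 8 receptors higher in worker, these 3 included, and 6 higher in drone. Without array 2, 1 of the receptors was called higher in worker. The median log2 ratio of all receptors was 0.02, beside -0.01 for all genes. Of 19 odorant binding proteins, 7 were called higher in worker and 0 in drone by limma, with 10 of the 19 at an unadjusted p under 0.05. Of 6 AmCg genes, taken as chemosensory proteins, 1 was higher in worker. Among all 313 genes the calls were 23 in worker and 14 in drone (7.35% and 4.47%). These calls depended on the processing. Under median centring only 4 genes of any kind were called higher in worker, and under housekeeping centring 5. The co-receptor AmOr002 had a log2 ratio of -0.42 ± 0.16 (SE, n = 4, limma adjusted p = 0.174), below 0 on 4 arrays, and AmSNMP had 0.49 ± 0.18 (SE, n = 4, limma adjusted p = 0.173), above 0 on 4 arrays. Neither was called. None of the 3 G-protein alpha subunits and none of the 4 arrestins named AmARR was called by limma, with 1 and 0 at an unadjusted p under 0.05.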

How the data were processed

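Signals of 313 genes in worker and drone antennae were measured on 4 two-colour arrays. Per the file headers, the authors deposited spot intensities without normalization (foreground median and mean, local background median, at 635 nm for Cy5 and 532 nm for Cy3), a percent of saturated pixels per spot and a quality score per spot. The authors also deposited a table of log2 ratios whose centring and normalization are not stated. Set against the scanner values it ran as worker over drone, with r of 0.98, 0.91, 0.94 and 0.98 and column medians of -0.02, -0.09, -0.06 and 0.08 on arrays 1 to 4. The scanner and image software are not given in the sources used here.

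The processing used limma 3.58.1 under R 4.3.3. Foreground medians were background-corrected by normexp (offset 50), spots marked absent (code -75) were dropped, each array was loess-normalized giving control spots weight 0, and duplicate spots were averaged per gene. Ratios were turned to worker over drone by the dye fields and tested two-sided by lmFit and eBayes. The p-values were adjusted over all genes by the Benjamini-Hochberg method. Loess sets the typical ratio to 0 along the brightness range, which hides any change common to most genes. Folds are 2 to the power of the mean log2 ratio. For a gene not above the negative controls in drone on any array, the bound on the fold set its worker level, after loess and Aquantile normalization, against the lowest drone level above the controls. The pipeline was tested on simulated data.

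The 3 receptors and the gene lists were chosen with earlier results of these data known. The rule for named genes took the 3 receptors, AmOr148 and AmOr152, called genes numbered AmOr140 to AmOr160, the 5 genes of most similar ratios, AmOr002 and AmSNMP. AmOr154 and AmOr159 were named after their values were seen. The number of arrays limits the precision.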

Additional observations from a re-analysis of the deposited data

Results flagged for a closer look

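Among 21 sets of 4 array values examined, 1 held a value far from the others, where chance alone marks about 1 in 20. It was the worker level of AmOr149, on the log2 scale after loess and Aquantile normalization, which was 8.60, 8.55, 9.03 and 8.59 on arrays 1 to 4. The gap between array 3 and the next value was 0.901 of the whole range, above Dixon's critical value for 4 values. The drone levels of AmOr149 were 7.51, 7.93, 8.07 and 7.76, also highest on array 3, and its log2 ratio on that array was 0.96, within the range of the other arrays.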

How the results depend on the processing

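With the dye fields of the labels, the mean log2 ratio of worker over drone was above 0 under 18 of 18 other settings for AmOr149 and AmOr150 and under 19 of 19 for AmOr151, from 0.79 to 1.34, from 0.81 to 1.65 and from 1.46 to 2.13. Not all of these settings could turn the sign. Fitting a dye coefficient returned the same means, and testing detected genes alone left AmOr151 unchanged. Settings that left out, averaged or kept some of the arrays used ratios chosen to be above 0. With the dyes of the protocol text the means turned to -0.33, -0.66 and -1.05, and limma called 0 worker and 0 drone genes, 0 of them receptors, with 8 genes at an unadjusted p under 0.05. By more than 1 SD, AmOr149 moved to 1.29 with plain background subtraction, 1.12 with a normexp offset of 0, 1.19 without normalization, 1.34 with housekeeping centring and 1.24 in the authors' deposited table. AmOr150 moved to 1.65 with plain subtraction and to 1.55 in the authors' deposited table. Leaving out 1 array gave 0.80 to 0.96 for AmOr149, 0.81 to 1.14 for AmOr150 and 1.52 to 2.13 for AmOr151. The differences then ran from 0.46 to 1.32 (AmOr151 minus AmOr150), 0.63 to 1.29 (AmOr151 minus AmOr149) and -0.039 to 0.33 (AmOr150 minus AmOr149). Housekeeping centring, control centring and no normalization shifted the median of all genes to 0.25, 0.18 and 0.10. Relative to it, AmOr149, AmOr150 and AmOr151 stood at 1.09, 1.14 and 1.68 in the first and last, and at 0.89, 1.05 and 1.84 under control centring.

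Genes called higher in worker, 23 in all and 8 receptors, numbered 4 and 2 under median centring, 13 and 4 without normalization, 5 and 0 under housekeeping centring (8 receptors at an unadjusted p under 0.05), 13 and 3 under control centring, and 5 and 0 on the 2 arrays sharing a label number (11 receptors at an unadjusted p under 0.05). Among detected genes alone 5 receptors were called, and AmOr149 and AmOr150 were not among the genes tested. Without 1 array the counts ran from 13 to 29 and from 1 to 12. The cause was not tested. Print block medians, control centring, the settings on arrays of 1 label number and the differences without 1 array were added after seeing the data. A random block for those arrays could not be fitted with 1 shared pair. The fit is itself paired, since each ratio sets a worker pool against a drone pool of the same array. Signals below the threshold from the negative controls, in drone on each array and in worker on arrays 1 and 3, limit AmOr149 and AmOr150.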

Other observations

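Apart from AmOr148 to AmOr152, the receptors held 3 other runs of consecutive numbers with a log2 ratio of worker over drone above 0 on 4 of 4 arrays. They were AmOr103 to AmOr105, AmOr076 with AmOr077, and AmOr111 with AmOr112, named after their values were seen, and limma called 0 of these genes. In the run of 3, AmOr105 had a mean log2 ratio of 0.80 ± 0.23 (SE, n = 4, limma adjusted p = 0.0885), while AmOr103 and AmOr104 had 0.26 ± 0.16 and 0.27 ± 0.16 (SE). Without normalization, AmOr148 and AmOr150 were above 0 on 3 of 4 arrays each, so the run from AmOr148 to AmOr152 did not hold there. AmOr103 to AmOr105 did not keep values above 0 on each array in that setting either, where they had 3, 2 and 3 of 4 arrays above 0.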
